A study of Mus musculus with 9 samples.

Results

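Collagens are secreted or membrane-bound proteins whose alpha chains wind around each other, and each chain has a gene of its own. The collagen genes described here are those whose annotated symbol is Col, a number, the letter a and a number. The rule found 42 genes among the 19087 named genes on the array, represented by 101 of its 45220 features. RefSeq's mouse annotation (assembly GRCm38.p6) lists 44 symbols of this form, and the other 2, Col6a3 and Col6a5, had no named feature and were not analysed here. RNA of cerebellum was hybridised on 9 arrays with 2 colours each. On 4 arrays the Cy5 channel held Pycard knockout cerebellum and on 5 arrays Pycard wild-type cerebellum, both from SmoA1 mice at postnatal day 20. The labels call SmoA1 a medulloblastoma strain, and Pycard encodes ASC, the adaptor protein of inflammasomes. The Cy3 channel of all 9 arrays held RNA pooled from wild-type cerebella of day 16.

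Every value below is a log2 ratio of a sample over this pool, so that 1 is a doubling and -1 a halving. The SmoA1 transgene, the 4 days between the ages and the dye all separate the samples from the pool, and they cannot be told apart in a ratio to it. As is known of this strain, the transgene is an activated Smoothened driven by a promoter active in granule neurons and their progenitors, and both genotypes carry it. The pool is a single reference without a spread of its own, which tests against it leave out. A ratio holds no level, so one gene's abundance cannot be set against another's, and whether a marker gene is present at all cannot be judged. The labels do not say whether arrays come from separate animals, so p-values reflect the variation among these RNA samples, part of which could be technical. In bulk tissue, fewer cells of a type and less RNA per cell cannot be told apart. Pycard was at -2.39 ± 0.64 (SD, n = 4) in knockout and at 1.08 ± 0.26 (SD, n = 5) in wild-type cerebella, and its groups did not overlap. Array medians lay between 0 and 0.013 and the SD over features between 0.552 and 1.12.

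Fibrillar collagens assemble into the banded fibres of connective tissue. Basement membrane collagens form sheets under epithelia and around blood vessels, and fibril-associated collagens decorate the fibres. Brain parenchyma holds little fibrillar collagen, and its collagen lies mainly in the meninges and in the walls of vessels, while the choroid plexus has a stroma and basement membrane of its own.

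The median collagen gene lay below the pool in both genotypes. It was at -0.21 in knockout and -0.32 in wild-type cerebella, beside 0.006 and 0.0078 over all 30654 values tested. In knockout cerebella 6 of 42 fell below the pool at a limma adjusted p under 0.05 (14.3%, beside 3.35% of all values), namely Col1a1, Col2a1, Col4a2, Col6a1, Col18a1 and Col23a1. In wild-type cerebella 13 of 42 fell (31.0%, beside 12.1% of all values), and besides these 6 they were Col1a2, Col4a1, Col5a1, Col6a2, Col13a1, Col19a1 and Col20a1. Col12a1 rose in both genotypes and Col11a1 in wild-type cerebella. Higher calls were thus 1 of 42 in knockout (2.38%, beside 4.28% of all values) and 2 of 42 in wild-type cerebella (4.76%, beside 12.9%). The counts of both genotypes share the pool.

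Several marker lists of resident brain cells had most of their array means below the pool too. Oligodendrocyte and precursor markers (9 of 10 measured) had array means between -0.45 and -0.35 in knockout and -0.77 and -0.38 in wild-type cerebella, with 5 and 7 genes lower and 1 and 1 higher by the same test. The higher gene was Pdgfra in both genotypes, which is also in the meningeal fibroblast list below. Purkinje cell markers (6 of 8 measured) lay between -1.02 and -0.12 in knockout and -1.12 and -0.80 in wild-type cerebella, with 1 and 6 genes lower. Granule neuron markers (7 of 8 measured) lay between -0.52 and 0.021 in knockout and -0.68 and -0.39 in wild-type cerebella, with 1 and 5 genes lower. Astrocyte and Bergmann glia markers (8 of 8 measured) lay between -0.66 and -0.23 in knockout and -0.93 and -0.47 in wild-type cerebella, with 2 and 5 genes lower. Microglia and macrophage markers (6 of 8 measured) reached above the pool, between -0.23 and 0.51 in knockout and 0.48 and 0.82 in wild-type cerebella. Of these 0 were lower and 0 higher in knockout. In wild-type cerebella 1 was lower, Tmem119 at -0.28, and 2 were higher, Aif1 at 1.43 and Fcrls at 1.46. Over all values 3.35% were lower and 4.28% higher in knockout, and 12.1% and 12.9% in wild-type cerebella. No gene of these 5 lists was at 0 on every array. The part of any of these cell types in the collagen values was not tested.

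With a mean of at least 1 either way added to the threshold, 0 of 42 fell and 1 rose in knockout cerebella (beside 0.398% and 1.58% of all values). By the same rule 2 fell (Col23a1 and, on the average of 2 features that differ, Col1a2) and 1 rose (Col12a1) in wild-type cerebella, beside 1.79% and 3.73%. All 9 arrays lay below the pool for 13 of 42 genes (31.0%, beside 10.0% of all values) and above it for Col12a1 alone (2.38%, beside 11.1%). Between the genotypes 0 of 42 differed at a limma adjusted p under 0.05 (beside 0.0163% of all values), and 3 had an unadjusted p under 0.05 (7.14%, beside 5.40%). None of the other settings tried called a collagen gene between the genotypes.

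**Figure D1:**
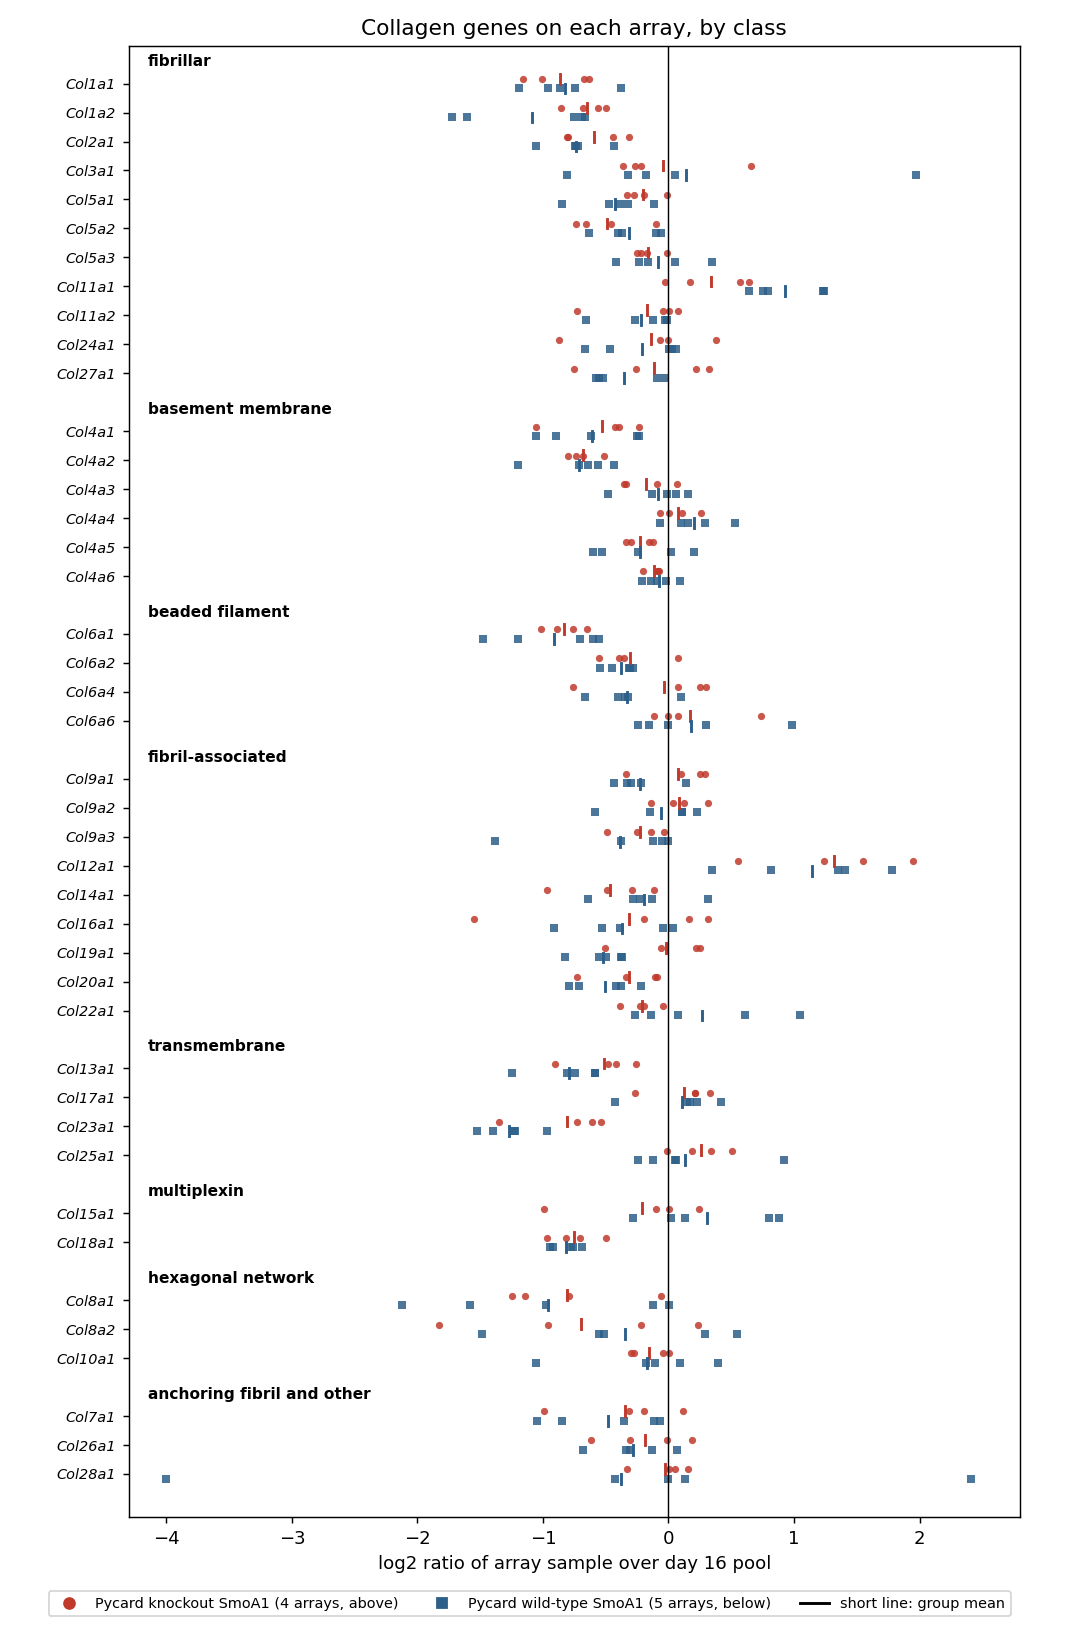
Log2 ratio over the day 16 pool of each collagen gene (1 line per gene, by class) on each array; circles are the 4 Pycard knockout arrays, squares the 5 Pycard wild-type arrays, and short lines group means. Col1a1, Col1a2, Col4a1, Col4a2 and Col6a1 lie left of 0 on all 9 arrays, Col12a1 lies right of 0 on all 9 arrays, and Col28a1 spans -4.00 to 2.41 on wild-type arrays.

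Promoter sequence is shown for 3 genes whose results stand out below. Col1a2 and Col6a1 lay below the pool on all 9 arrays, and Col11a1 is the collagen gene whose genotypes did not overlap on the average of its features. Each stretch is the part of RefSeq's promoter entry (GRCm38.p6) that lies before the gene's annotated span, 250 bases for Col1a2 and Col6a1 and 189 for Col11a1, whose entry belongs to a start inside that span. All are read 5′ to 3′ on the gene's strand. They lie at chr6:4505368-4505617 (plus strand) for Col1a2, chr10:76726045-76726294 (minus) for Col6a1 and chr3:114030290-114030478 (plus) for Col11a1. Capitals mark the CCAAT box, the TATAAA box and the GGGCGG motif, which were searched on both strands and do not overlap each other here. A match on the other strand reads ATTGG for the first and CCGCCC for the last.
Col1a2: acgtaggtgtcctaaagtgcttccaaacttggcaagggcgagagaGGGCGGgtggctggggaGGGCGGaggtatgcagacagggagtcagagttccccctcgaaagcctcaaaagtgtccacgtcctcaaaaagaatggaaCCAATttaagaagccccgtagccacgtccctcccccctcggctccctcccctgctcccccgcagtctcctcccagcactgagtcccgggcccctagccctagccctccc
Col6a1: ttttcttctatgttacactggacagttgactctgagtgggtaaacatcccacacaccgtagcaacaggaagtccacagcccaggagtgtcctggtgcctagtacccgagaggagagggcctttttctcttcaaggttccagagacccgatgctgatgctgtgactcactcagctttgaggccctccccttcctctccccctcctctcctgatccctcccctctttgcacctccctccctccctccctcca
Col11a1: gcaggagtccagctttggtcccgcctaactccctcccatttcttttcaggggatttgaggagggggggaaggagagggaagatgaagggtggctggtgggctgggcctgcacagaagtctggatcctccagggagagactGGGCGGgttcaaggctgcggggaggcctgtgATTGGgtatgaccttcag

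The Col1a2 stretch holds 1 CCAAT and 2 GGGCGG, that of Col11a1 holds 1 of each, and that of Col6a1 holds 0 of the 3 motifs. None of the 3 stretches holds TATAAA. Whole windows, the 250 bases before the start each entry gives, which can lie inside the gene's span, were on hand for 33 of the 42 genes, 36 windows in all. GGGCGG stood in 58.3% of them, beside 32.7% of all 32851 promoter windows. CCAAT stood in 36.1% beside 33.8%, and TATAAA in 13.9% beside 12.4%. A match describes letters only and is no binding site.

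The type I fibre genes were the lowest of the fibrillar class. Col1a1 encodes the alpha1 chain of type I collagen, the main fibre of bone, tendon and skin, and was measured by 12 features. Col1a1 read -1.16, -0.67, -0.63 and -1.01 on knockout 1 to 4, against -0.87, -0.96, -1.19, -0.74 and -0.38 on wild-type 1 to 5. Every array lay below the pool and the genotypes overlapped over nearly their whole range. The mean was -0.87 ± 0.26 (SD, n = 4) in knockout and -0.83 ± 0.30 (SD, n = 5) in wild-type cerebella, which is 0.548 and 0.564 times the pool (limma adjusted p = 0.0107 and 0.00212). With replicate number as a block the knockout value was -0.75, limma adjusted p = 0.0606, which ends the call.

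Col1a2 encodes the alpha2 chain of the same fibre. The ratios of Col1a2 were -0.68, -0.56, -0.86 and -0.50 on knockout 1 to 4 and -0.69, -0.75, -1.61, -1.72 and -0.66 on wild-type 1 to 5. All 9 arrays lay below the pool, and on this average of 2 features wild-type 3 and 4 were lower than all the others. The mean was -0.65 ± 0.16 (SD, n = 4) in knockout and -1.09 ± 0.53 (SD, n = 5) in wild-type cerebella. The gene fell in wild-type cerebella to 0.471 times the pool (limma adjusted p = 0.00289), while in knockout cerebella, at 0.638 times the pool, it did not pass (limma adjusted p = 0.0867). The Col1a2 difference, knockout minus wild-type, was 0.44 (SE 0.263, 95% interval -0.16 to 1.04, limma adjusted p = 0.932). The features disagreed on wild-type 4, at -2.69 on 1 and -0.75 on the other. The first feature alone averaged -0.45 in knockout and -1.21 in wild-type cerebella (limma adjusted p = 0.475 and 0.0213), and the second -0.84 in knockout and -0.96 in wild-type cerebella (limma adjusted p = 0.0190 and 0.00199). The genotype difference was 0.76 on the first and 0.12 on the second, so the size of the wild-type fall and of that difference rest on which is read.

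Col2a1, the fibre chain of cartilage, also lay below the pool on every array. For Col2a1 the knockout arrays 1 to 4 gave -0.81, -0.44, -0.32 and -0.80 and the wild-type arrays 1 to 5 gave -0.72, -0.75, -0.74, -1.06 and -0.43. The genotypes overlapped, and the mean was -0.59 ± 0.25 (SD, n = 4) in knockout and -0.74 ± 0.22 (SD, n = 5) in wild-type cerebella (limma adjusted p = 0.0229 and 0.00170). Its knockout call was lost with the replicate block (-0.52, limma adjusted p = 0.0543), with a trended robust prior (-0.59, limma adjusted p = 0.0536) and without knockout 1 (-0.52, limma adjusted p = 0.0881), knockout 2 (-0.64, limma adjusted p = 0.0766) or knockout 4 (-0.52, limma adjusted p = 0.0783). Cartilage and bone markers, measured for 7 of 8 genes and none of them at 0 on every array, had array means between -0.053 and 0.41 in knockout and 0.018 and 0.51 in wild-type cerebella. These means hide genes that went either way. In knockout 0 fell and 1 rose (Sox9). In wild-type cerebella 2 fell, Acan at -0.33 and Sp7 at -0.63, and 2 rose, Sox9 at 0.66 and Bglap at 1.42 (beside 12.1% and 12.9% of all values). The part of cartilage or bone in the Col2a1 values was not tested.

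For both 12-feature genes, 11 features moved together and 1 stood apart. The means over 9 arrays of the 11 Col1a1 features lay between -0.996 and -0.78, and the other feature was at 0.21. The 11 Col2a1 features lay between -0.84 and -0.58, and the other was at 0.45. That other Col2a1 feature averaged 0.89 in knockout and 0.095 in wild-type cerebella, and alone passed as higher in knockout (limma adjusted p = 0.0312 and 0.729). Its genotype difference was 0.79 (limma adjusted p = 0.925). Without the feature that stood apart, Col1a1 averaged -0.94 in knockout and -0.94 in wild-type cerebella, and Col2a1 -0.73 and -0.82. The genewise means above are therefore pulled toward 0 by 1 feature each. Whether the 11 features of a gene repeat 1 probe is unknown. Their agreement may thus not be that of 11 separate measurements. Which reading is nearer to the gene's true ratio was not tested.

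**Figure D2:**
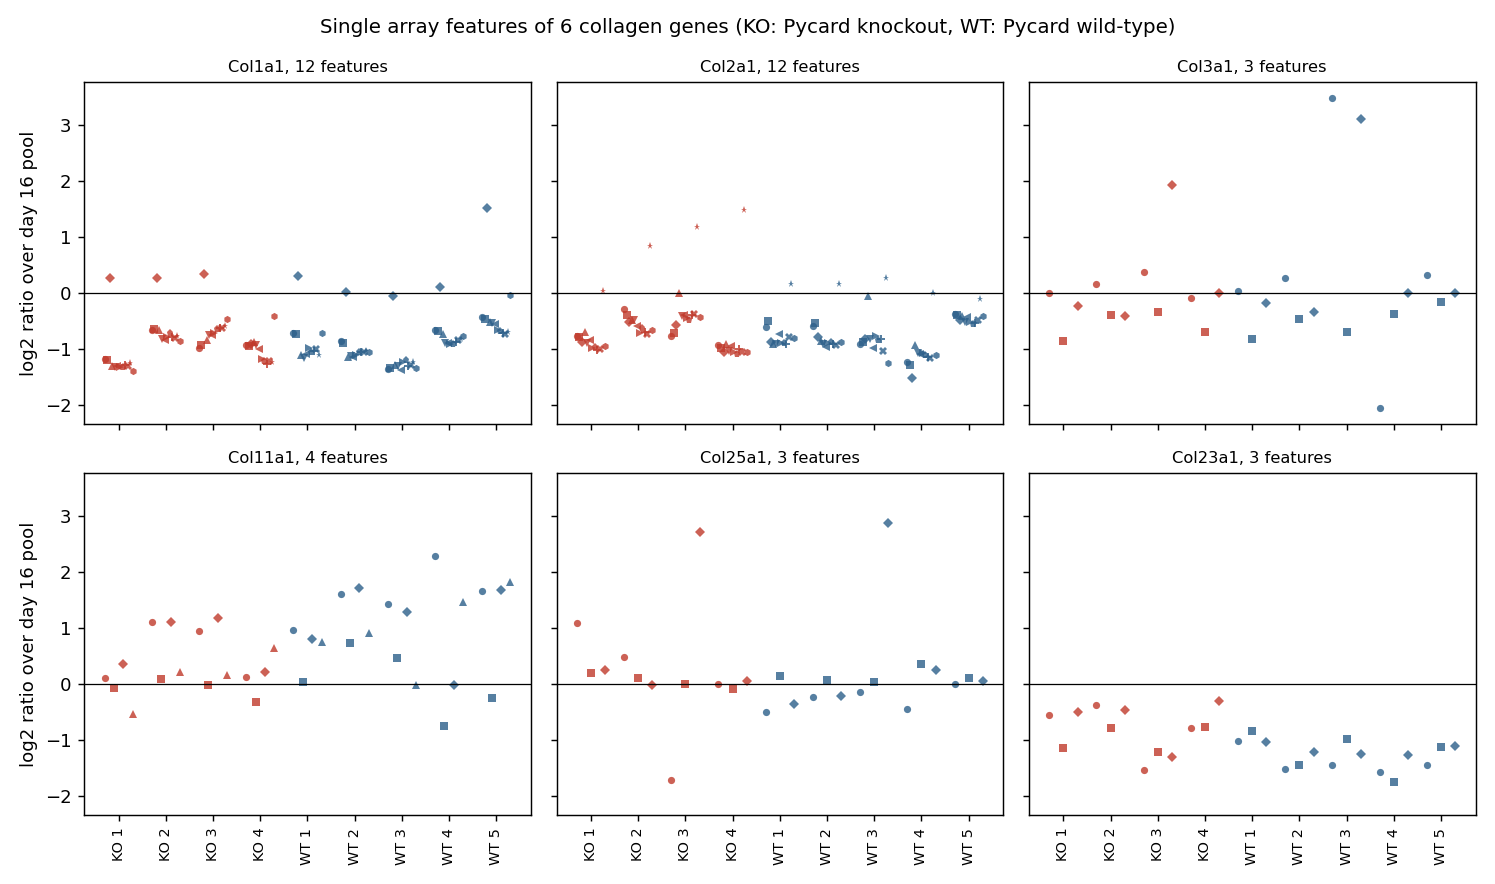
Log2 ratio over the day 16 pool (y axis) of every feature of 6 collagen genes on each of 9 arrays (x axis, knockout left of wild-type); each marker shape is 1 feature. In Col1a1 and Col2a1 1 feature runs above the other 11, in Col3a1 and Col25a1 single features reach 3.49 and 2.87 on wild-type 3, and the 3 Col23a1 features stay together.

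Col3a1, the chain of type III collagen in vessel walls and skin, was highest on the array numbered 3 of each genotype. Col3a1 was at -0.36, -0.22, 0.66 and -0.26 on knockout 1 to 4, and at -0.32, -0.18, 1.97, -0.81 and 0.053 on wild-type 1 to 5. Apart from these arrays the groups overlapped around the pool. The 3 features did not move together. On wild-type 3 they read 3.49, -0.69 and 3.12, and on knockout 3 they read 0.38, -0.34 and 1.93. The mean was -0.047 ± 0.47 (SD, n = 4) in knockout and 0.14 ± 1.07 (SD, n = 5) in wild-type cerebella, and neither genotype passed (limma adjusted p = 0.973 and 0.804).

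Col11a1, a minor chain of cartilage fibres that limits their width, was the fibrillar gene furthest above the pool. Col11a1 read -0.031, 0.64, 0.57 and 0.17 on knockout 1 to 4, against 0.64, 1.24, 0.79, 0.75 and 1.23 on wild-type 1 to 5. The highest knockout value, 0.638 on knockout 2, lay just under the lowest wild-type value, 0.6395 on wild-type 1. It was the only collagen gene whose genotypes did not overlap on the average of its features (1 of 42, lower in knockout, beside 0.946% of all values). No collagen gene had all knockout arrays above all wild-type arrays (beside 0.796%). The mean was 0.34 ± 0.32 (SD, n = 4) in knockout and 0.93 ± 0.29 (SD, n = 5) in wild-type cerebella. It rose in wild-type cerebella to 1.91 times the pool (limma adjusted p = 0.00156) and did not pass in knockout cerebella at 1.26 times (limma adjusted p = 0.215). The Col11a1 difference, knockout minus wild-type, was -0.59 (SE 0.197, 95% interval -1.04 to -0.14, limma adjusted p = 0.917). Within the arrays titled with a letter the difference was -0.50, and within those titled with a number, where knockout 4 is the only knockout array, -0.82. Its 4 features differed between the genotypes by -1.02, -0.12, -0.37 and -0.87, and the genotypes overlapped on each of the 4. In wild-type cerebella the features averaged 1.59, 0.045, 1.09 and 0.99 (limma adjusted p = 0.00102, 0.890, 0.0158 and 0.0221), so the second showed no rise.

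The other 6 fibrillar genes had means between -0.49 and -0.084 in both genotypes. Col5a1, a chain that starts fibre assembly, was at -0.20 ± 0.14 (SD, n = 4) in knockout and -0.43 ± 0.27 (SD, n = 5) in wild-type cerebella, and it passed the threshold as lower in wild-type cerebella but not in knockout (limma adjusted p = 0.336 and 0.0169), with the genotype difference at 0.23 (95% interval -0.12 to 0.58). Its 2 features lay on different sides of the pool or near it. The first averaged -0.63 in knockout and -0.84 in wild-type cerebella (limma adjusted p = 0.00732 and 0.000306), and the second 0.23 in knockout and -0.023 in wild-type cerebella (limma adjusted p = 0.480 and 0.938). Of the 28 collagen genes with several features, 14 had all feature means on one side of 0. A gene whose average passed in neither genotype could still hold a feature that passed when tested singly. Col3a1, Col4a3, Col4a4, Col5a3, Col14a1 and Col16a1 each did. The Col5a1 partner chain Col5a2 was at -0.49 ± 0.28 (SD, n = 4) in knockout and -0.31 ± 0.23 (SD, n = 5) in wild-type cerebella, below the pool on all 9 arrays, and passed in neither (limma adjusted p = 0.0563 and 0.0823). Col5a3, Col11a2, Col24a1 and Col27a1 had means between -0.17 and -0.12 in knockout and -0.35 and -0.084 in wild-type cerebella, and passed in neither. Over the 11 fibrillar genes the class mean was -0.28 ± 0.21 (SD, n = 4) in knockout and -0.29 ± 0.15 (SD, n = 5) in wild-type cerebella.

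Of the 6 basement membrane genes, the pair that forms the common type IV network lay below the pool and the other 4 lay near it. Col4a1 and Col4a2 encode the chains found in nearly every basement membrane, including that of brain vessels. The ratios of Col4a1 were -0.39, -0.24, -0.42 and -1.05 on knockout 1 to 4 and -0.62, -0.25, -0.23, -1.06 and -0.90 on wild-type 1 to 5. For Col4a2 the knockout arrays 1 to 4 gave -0.68, -0.52, -0.74 and -0.80 and the wild-type arrays 1 to 5 gave -0.44, -0.72, -0.64, -1.20 and -0.56. Both genes were below the pool on all 9 arrays with overlapping genotypes. Col4a2 averaged -0.68 ± 0.12 (SD, n = 4) in knockout and -0.71 ± 0.29 (SD, n = 5) in wild-type cerebella and fell in both genotypes (limma adjusted p = 0.0145 and 0.00211). The knockout call was lost without any 1 of the 4 knockout arrays, with values between -0.74 and -0.64 and adjusted p between 0.0523 and 0.0639 in limma, and with the replicate block (-0.64, limma adjusted p = 0.0504).

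Col4a1 averaged -0.53 ± 0.36 (SD, n = 4) in knockout and -0.61 ± 0.37 (SD, n = 5) in wild-type cerebella and passed in wild-type cerebella but not in knockout (limma adjusted p = 0.114 and 0.0227). That call was lost without wild-type 1 (-0.61, limma adjusted p = 0.0569), wild-type 4 (-0.50, limma adjusted p = 0.0645) or wild-type 5 (-0.54, limma adjusted p = 0.0742). The first of the 3 Col4a1 features averaged -0.45 in knockout and -0.44 in wild-type cerebella (limma adjusted p = 0.0547 and 0.0157). The second, at -0.49 in knockout and -0.61 in wild-type cerebella, alone passed in both. The third averaged -0.64 in knockout and -0.78 in wild-type cerebella and passed in neither. It reached -1.94 on knockout 4 and -1.68 on wild-type 5. Whether Col4a1 passed in knockout thus rests on which feature is read. The other type IV genes belong to networks of kidney, lung and smooth muscle. Col4a4 was at 0.0010, -0.071, 0.11 and 0.26 on knockout 1 to 4, and at -0.069, 0.10, 0.29, 0.53 and 0.15 on wild-type 1 to 5. Col4a6 read -0.093, -0.20, -0.079 and -0.084 on knockout 1 to 4, against -0.21, -0.14, -0.089, 0.088 and -0.020 on wild-type 1 to 5. These were the type IV genes nearest to or above the pool, and neither passed. Col4a3 and Col4a5 averaged -0.18 and -0.23 in knockout, and -0.083 and -0.23 in wild-type cerebella, and did not pass either. The class mean was -0.28 ± 0.044 (SD, n = 4) in knockout and -0.25 ± 0.091 (SD, n = 5) in wild-type cerebella.

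The 16 endothelial and pericyte markers, all measured and none at 0 on every array, had array means between -0.33 and -0.19 in knockout and -0.38 and -0.29 in wild-type cerebella. Of these 16 genes 5 fell in knockout and 7 in wild-type cerebella (beside 3.35% and 12.1% of all values), and 0 rose (beside 4.28% and 12.9%). Laminins, nidogens and heparan sulfate proteoglycans, the partners of type IV collagen in the basement membrane, were measured for 13 of 15 genes. Of these 3 fell in knockout and 8 in wild-type cerebella, and 0 rose, beside the same shares of all values. Lamc1, the gamma chain shared by most laminins, averaged -0.55 ± 0.21 (SD, n = 4) in knockout and -0.65 ± 0.23 (SD, n = 5) in wild-type cerebella (limma adjusted p = 0.0264 and 0.00270). Nid2, which links laminin to type IV collagen, averaged -0.58 in knockout and -0.54 in wild-type cerebella and passed in the wild-type alone (limma adjusted p = 0.0649 and 0.0252), a difference of -0.038 between them. The laminin chains Lama5 and Lamc3, the highest of the list over all 9 arrays, averaged -0.022 and 0.27 in knockout and 0.37 and 0.28 in wild-type cerebella, and passed in neither. Whether vessel content has a part in the type IV values was not tested.

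Beaded filament collagens of type VI link cells to the surrounding matrix. Col6a1, the alpha1 chain, was the lowest of the 4 measured and has 1 feature. The ratios of Col6a1 were -0.89, -0.65, -1.02 and -0.76 on knockout 1 to 4 and -0.71, -0.56, -1.48, -1.20 and -0.60 on wild-type 1 to 5. All arrays lay below the pool, with wild-type 3 and 4 lowest. The mean was -0.83 ± 0.16 (SD, n = 4) in knockout and -0.91 ± 0.41 (SD, n = 5) in wild-type cerebella, or 0.563 and 0.532 times the pool, and it fell in both genotypes (limma adjusted p = 0.0191 and 0.00240). Leaving out any 1 knockout array ended the knockout call, with values between -0.89 and -0.77 and limma adjusted p between 0.0545 and 0.0884.

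Col6a2, the alpha2 chain, lay below the pool on 8 of 9 arrays. For Col6a2 the knockout arrays 1 to 4 gave -0.35, -0.56, 0.080 and -0.39 and the wild-type arrays 1 to 5 gave -0.45, -0.30, -0.28, -0.54 and -0.32. It averaged -0.31 ± 0.27 (SD, n = 4) in knockout and -0.38 ± 0.11 (SD, n = 5) in wild-type cerebella, and passed in wild-type cerebella but not in knockout (limma adjusted p = 0.121 and 0.0192). The wild-type call was lost without wild-type 1 (-0.36, limma adjusted p = 0.0560) or wild-type 4 (-0.34, limma adjusted p = 0.0527) and after quantile normalization (-0.35, limma adjusted p = 0.0556). Col6a4 was at 0.30, 0.25, 0.078 and -0.76 on knockout 1 to 4, and at -0.33, -0.67, 0.10, -0.34 and -0.40 on wild-type 1 to 5. Col6a6 read 0.079, -0.11, 0.73 and 0 on knockout 1 to 4, against 0.30, -0.25, -0.16, 0 and 0.99 on wild-type 1 to 5. Both of these genes overlapped between the genotypes on either side of the pool and passed in neither. The class mean was -0.25 ± 0.18 (SD, n = 4) in knockout and -0.36 ± 0.17 (SD, n = 5) in wild-type cerebella.

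Among the 9 fibril-associated genes Col12a1 was the only one that passed as higher than the pool. Its protein binds type I fibres and is abundant in tendon and ligament. The ratios of Col12a1 were 1.24, 1.55, 0.56 and 1.95 on knockout 1 to 4 and 0.82, 1.41, 0.35, 1.35 and 1.78 on wild-type 1 to 5. It was the only collagen gene above the pool on all 9 arrays, lowest on the array numbered 3 of each genotype, and the genotypes overlapped. The mean was 1.32 ± 0.59 (SD, n = 4) in knockout and 1.14 ± 0.56 (SD, n = 5) in wild-type cerebella, which is 2.50 and 2.20 times the pool (limma adjusted p = 0.0231 and 0.00932). The knockout call was lost without knockout 1 (1.35, limma adjusted p = 0.0702), knockout 2 (1.25, limma adjusted p = 0.105) or knockout 4 (1.11, limma adjusted p = 0.0773). A single feature measures Col12a1. Granule neuron progenitor markers, of the lineage that carries SmoA1, were also above the pool, with array means of 8 measured genes between 0.46 and 1.87 in knockout and 1.80 and 2.42 in wild-type cerebella. Their relation to the Col12a1 and Col11a1 values was not tested.

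Col19a1, which in mouse hippocampus is made by interneurons and acts in synapse formation, was low on the wild-type arrays. For Col19a1 the knockout arrays 1 to 4 gave 0.22, -0.056, -0.51 and 0.25 and the wild-type arrays 1 to 5 gave -0.50, -0.55, -0.38, -0.37 and -0.82. Only knockout 3 lay within the wild-type range. The mean was -0.023 ± 0.35 (SD, n = 4) in knockout and -0.52 ± 0.18 (SD, n = 5) in wild-type cerebella, and the gene passed in wild-type cerebella but not in knockout (limma adjusted p = 0.954 and 0.0140). The Col19a1 difference, knockout minus wild-type, was 0.50 (SE 0.179, 95% interval 0.091 to 0.91, limma adjusted p = 0.917). The difference was 0.36 within the letter-titled and 0.85 within the number-titled arrays. The 4 Col19a1 features averaged -0.14, -0.44, -0.59 and -0.92 in wild-type cerebella (limma adjusted p = 0.447, 0.105, 0.00576 and 0.0118). The first and second thus did not pass singly. Between the genotypes these features differed by 0.16, 0.53, 0.50 and 0.81.

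Col9a1, a chain of the cartilage collagen IX, and Col22a1, found at junctions of muscle and tendon, were the next by p. Col9a1 was at 0.29, 0.25, -0.34 and 0.10 on knockout 1 to 4, and at 0.14, -0.44, -0.33, -0.30 and -0.22 on wild-type 1 to 5. The Col9a1 difference, knockout minus wild-type, was 0.31 (SE 0.169, 95% interval -0.080 to 0.69, limma adjusted p = 0.932). Col22a1 read -0.19, -0.23, -0.040 and -0.39 on knockout 1 to 4, against 0.075, -0.27, -0.14, 1.05 and 0.61 on wild-type 1 to 5. The high wild-type values of Col22a1 were those of wild-type 4 and 5. The Col22a1 difference, knockout minus wild-type, was -0.48 (SE 0.272, 95% interval -1.10 to 0.14, limma adjusted p = 0.932). Within the letter-titled arrays its difference was -0.041 and within the number-titled arrays -1.22.

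Over all 9 arrays Col20a1 and Col16a1 were the lowest of the class. The ratios of Col20a1 were -0.089, -0.11, -0.34 and -0.73 on knockout 1 to 4 and -0.38, -0.42, -0.22, -0.79 and -0.71 on wild-type 1 to 5. It averaged -0.31 ± 0.30 (SD, n = 4) in knockout and -0.50 ± 0.24 (SD, n = 5) in wild-type cerebella, below the pool on all 9 arrays, and passed in wild-type cerebella but not in knockout (limma adjusted p = 0.201 and 0.0157). The wild-type call was lost without wild-type 5 (-0.45, limma adjusted p = 0.0551). For Col16a1 the knockout arrays 1 to 4 gave 0.31, 0.17, -1.55 and -0.20 and the wild-type arrays 1 to 5 gave -0.042, 0.035, -0.53, -0.91 and -0.39. Knockout 3 was the lowest array for Col16a1, at -2.62 on 1 feature and -0.48 on the other, and the average passed in neither genotype. The first feature averaged -0.065 in knockout and -0.0014 in wild-type cerebella. The second averaged -0.57 in knockout and -0.73 in wild-type cerebella and alone passed in both (limma adjusted p = 0.0390 and 0.00313). Col9a2, Col9a3 and Col14a1 passed in neither genotype, with means of 0.084, -0.23 and -0.46 in knockout and -0.058, -0.39 and -0.19 in wild-type cerebella. Of the 2 Col14a1 features, 1 averaged -0.71 in knockout and -0.75 in wild-type cerebella and alone passed in both (limma adjusted p = 0.0202 and 0.00317). The other, at -0.22 in knockout and 0.36 in wild-type cerebella, passed in neither. The class mean was -0.0084 ± 0.19 (SD, n = 4) in knockout and -0.095 ± 0.11 (SD, n = 5) in wild-type cerebella.

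Transmembrane collagens sit in the plasma membrane with the collagen part outside. Col23a1 was the lowest collagen gene of wild-type cerebella, and its 3 features, with means between -1.14 and -0.94, stayed together. Col23a1 was at -0.73, -0.54, -1.35 and -0.61 on knockout 1 to 4, and at -0.97, -1.40, -1.22, -1.53 and -1.23 on wild-type 1 to 5. Every array lay below the pool, and 3 of the 4 knockout arrays lay above all wild-type arrays, while knockout 3 lay within the wild-type range. The mean was -0.81 ± 0.37 (SD, n = 4) in knockout and -1.27 ± 0.21 (SD, n = 5) in wild-type cerebella, or 0.571 and 0.415 times the pool (limma adjusted p = 0.0147 and 0.000391). With the replicate block the knockout call was lost (-0.80, limma adjusted p = 0.0703). The Col23a1 difference, knockout minus wild-type, was 0.46 (SE 0.191, 95% interval 0.024 to 0.90, limma adjusted p = 0.917).

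Col13a1, which acts at neuromuscular junctions, lay below the pool on all 9 arrays. Col13a1 read -0.42, -0.48, -0.26 and -0.90 on knockout 1 to 4, against -0.59, -0.74, -0.58, -1.24 and -0.81 on wild-type 1 to 5. It averaged -0.52 ± 0.27 (SD, n = 4) in knockout and -0.79 ± 0.27 (SD, n = 5) in wild-type cerebella, and passed in wild-type cerebella but not in knockout (limma adjusted p = 0.0553 and 0.00218). Its genotype difference was 0.28 (95% interval -0.14 to 0.69). Col17a1 is a collagen of hemidesmosomes in skin. The ratios of Col17a1 were 0.21, 0.21, -0.26 and 0.33 on knockout 1 to 4 and 0.42, 0.23, -0.43, 0.15 and 0.17 on wild-type 1 to 5. For Col25a1 the knockout arrays 1 to 4 gave 0.51, 0.19, 0.34 and -0.012 and the wild-type arrays 1 to 5 gave -0.24, -0.12, 0.92, 0.060 and 0.056. Col25a1 acts on motor axons that grow into muscle. Its features disagreed, with wild-type 3 at 2.87 in 1 of 3 and at 0.037 and -0.15 in the others. Neither Col17a1 nor Col25a1 passed. The class mean was -0.24 ± 0.13 (SD, n = 4) in knockout and -0.46 ± 0.13 (SD, n = 5) in wild-type cerebella, and the mean of each of the 4 genes was higher in knockout.

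The multiplexins are collagens of basement membranes that carry heparan or chondroitin sulfate chains. Col18a1, the source of endostatin, had the smallest adjusted p of all collagen genes in both genotypes. Col18a1 was at -0.71, -0.50, -0.82 and -0.97 on knockout 1 to 4, and at -0.77, -0.92, -0.69, -0.94 and -0.76 on wild-type 1 to 5. The 9 arrays lay between -0.97 and -0.50, all below the pool. The mean was -0.75 ± 0.20 (SD, n = 4) in knockout and -0.82 ± 0.11 (SD, n = 5) in wild-type cerebella, or 0.595 and 0.567 times the pool (limma adjusted p = 0.00469 and 0.000340). With any 1 array left out it passed in both genotypes. Col15a1 read -0.99, -0.10, 0.0045 and 0.24 on knockout 1 to 4, against -0.28, 0.018, 0.13, 0.88 and 0.80 on wild-type 1 to 5. Col15a1 spread to both sides of the pool in both genotypes and passed in neither.

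Type VIII collagen, a short-chain network of the cornea and of vessel walls, varied more between arrays than between genotypes. The ratios of Col8a1 were -1.24, -1.14, -0.79 and -0.060 on knockout 1 to 4 and -0.98, 0.0015, -2.13, -1.58 and -0.12 on wild-type 1 to 5. For Col8a2 the knockout arrays 1 to 4 gave -1.83, -0.96, -0.22 and 0.24 and the wild-type arrays 1 to 5 gave -0.52, 0.55, -1.49, -0.55 and 0.30. The arrays lowest for both genes came from both genotypes. Neither gene passed against the pool or between genotypes, where Col8a1 differed by 0.15 (95% interval -0.95 to 1.25) and Col8a2 by -0.35 (95% interval -1.55 to 0.84).

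The choroid plexus transcript Ttr, which encodes the thyroxine carrier transthyretin, varied over the same arrays. Ttr was at -4.63, -4.52, 0.11 and 0.42 on knockout 1 to 4, and at -1.06, 1.08, -4.48, -3.27 and 0.19 on wild-type 1 to 5. The mean of 7 measured of 8 choroid plexus markers, none at 0 on every array, lay between -1.80 and 0.19 in knockout and -1.56 and 0.59 in wild-type cerebella. By the limma test 0 of these fell and 0 rose in knockout (beside 3.35% and 4.28% of all values). In wild-type cerebella 0 fell and 1 rose (beside 12.1% and 12.9%). That gene, Otx2, averaged 0.35 in knockout and 0.87 in wild-type cerebella (limma adjusted p = 0.449 and 0.0230). Slc4a5 was at -0.21 on knockout 1, the lowest array for Ttr, and at -0.73 on wild-type 1, so not every marker followed Ttr. The 4 arrays lowest for Ttr (knockout 1 and 2, wild-type 3 and 4) were also the 4 lowest for Col8a1 and for Col8a2. The 4 highest (knockout 3 and 4, wild-type 2 and 5) were likewise shared. This match was singled out after values were seen. The part of choroid plexus content in the Col8a1 and Col8a2 values was not tested.

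**Figure D3:**
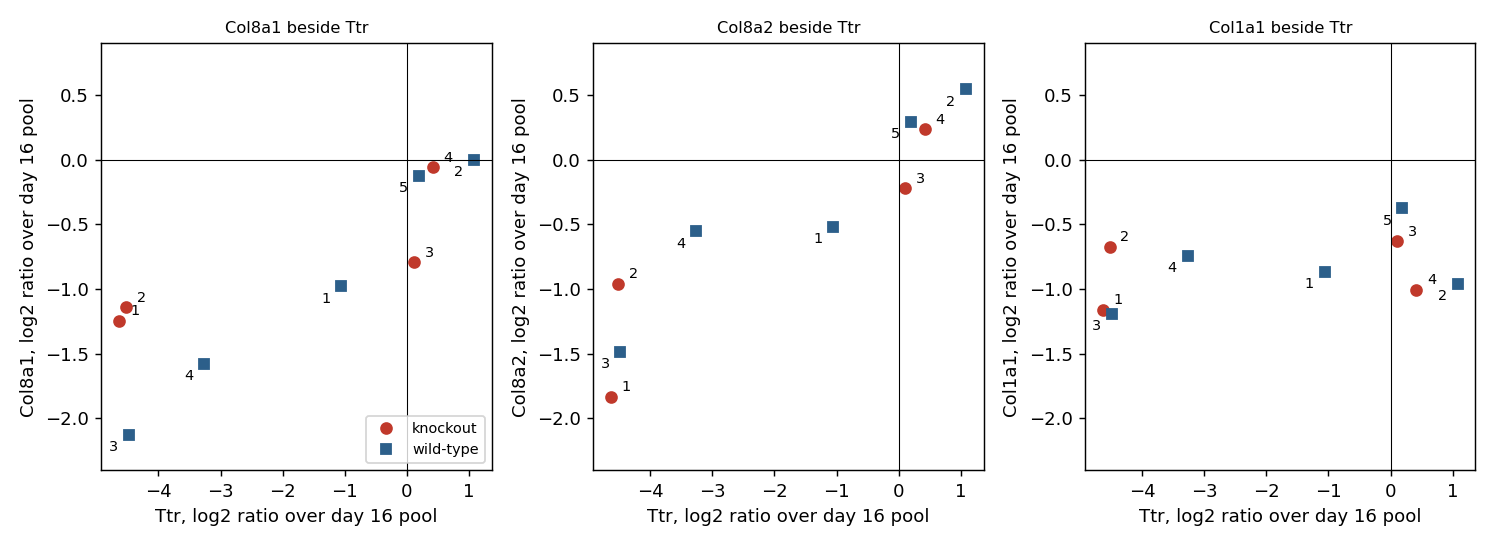
Log2 ratio over the day 16 pool of Col8a1, Col8a2 and Col1a1 (y axes) against that of Ttr (x axes) on 9 arrays; circles are knockout, squares wild-type, and the digits are replicate numbers. Col8a1 and Col8a2 are lowest on the arrays with the lowest Ttr, while Col1a1 lies between -1.19 and -0.38 at either end.

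Col10a1, the collagen of hypertrophic cartilage, did not share this order. Col10a1 was at -0.27, -0.30, 0.0020 and -0.046 on knockout 1 to 4, and at 0.093, -0.11, 0.39, -0.18 and -1.06 on wild-type 1 to 5. Its lowest array was wild-type 5, among the highest for Ttr, and it passed in neither genotype. The hexagonal network class mean was -0.55 ± 0.51 (SD, n = 4) in knockout and -0.49 ± 0.46 (SD, n = 5) in wild-type cerebella. On number-titled arrays alone, 1 of them knockout, the knockout class mean was 0.043, and the class difference was 0.58 there and -0.60 with array weights, against -0.060 in the unweighted fit to all arrays.

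The last 3 genes passed in no comparison. Col7a1 forms the anchoring fibrils of skin. Col7a1 read 0.11, -0.19, -0.31 and -0.99 on knockout 1 to 4, against -0.12, -0.35, -0.065, -0.85 and -1.05 on wild-type 1 to 5. The ratios of Col26a1 were -0.011, 0.19, -0.31 and -0.62 on knockout 1 to 4 and -0.13, 0.070, -0.68, -0.31 and -0.34 on wild-type 1 to 5. For Col28a1 the knockout arrays 1 to 4 gave 0.054, 0.15, 0.0030 and -0.33 and the wild-type arrays 1 to 5 gave -0.43, 0.13, -4.00, 2.41 and 0. For Col28a1 the 5 wild-type arrays spanned from -4.00 on wild-type 3 to 2.41 on wild-type 4 (SD 2.31), the widest spread of any collagen gene, while the knockout SD was 0.21. A single feature measures Col28a1 and wild-type 5 is at 0 exactly.

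**Figure D4:**
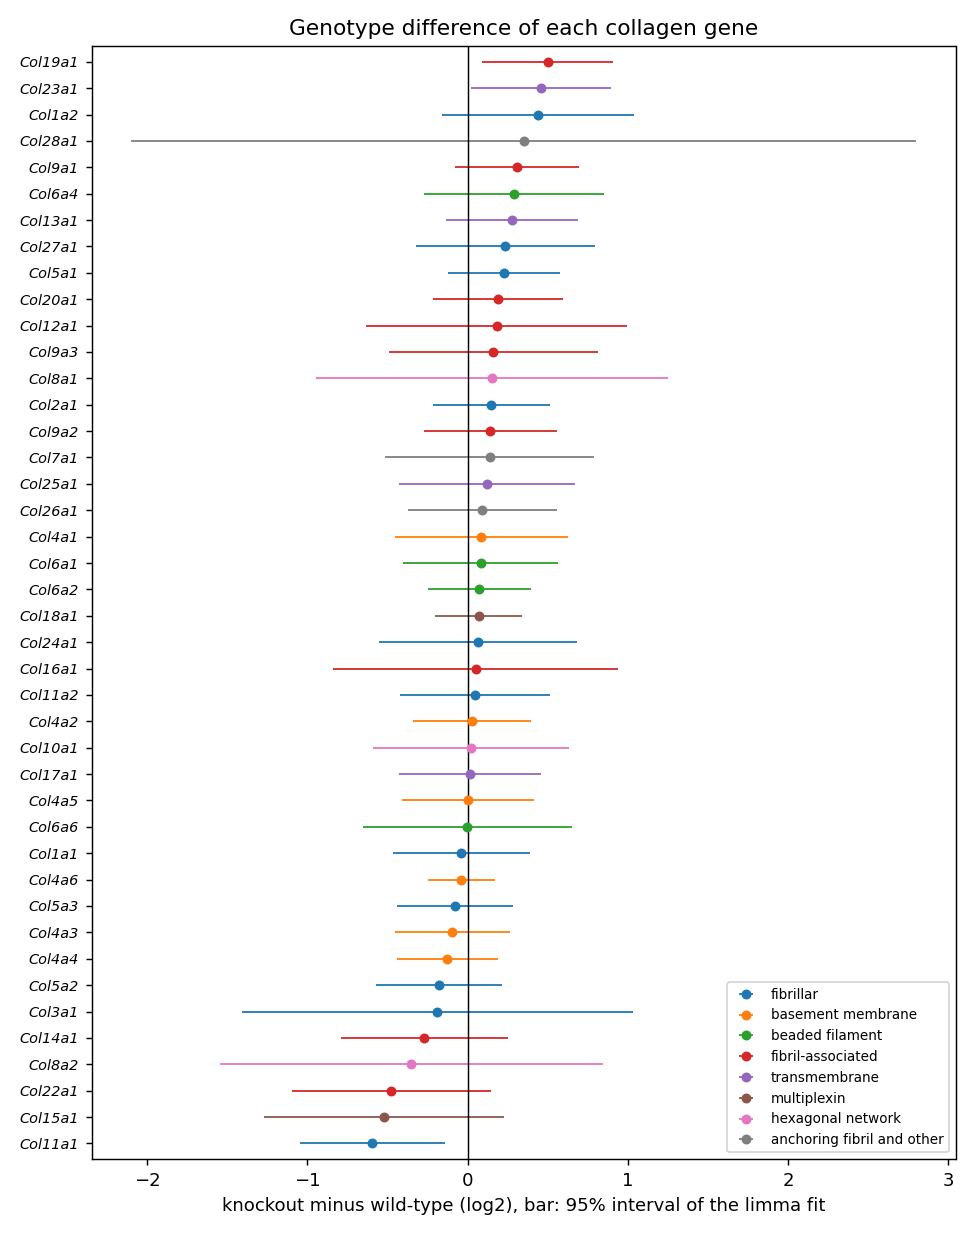
Knockout minus wild-type difference in log2 ratio of each of 42 collagen genes (points, coloured by class) with the 95% interval of the limma fit (bars), sorted by size. The intervals of Col19a1, Col23a1 and Col11a1 lie clear of 0 before adjustment over all values, and none of the 42 passed after it.

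Between the genotypes no collagen gene passed after adjustment over all values. The median difference over the 42 genes was 0.071, beside 0.0079 over all values, and 29 of 42 means were higher in knockout (69.0%, beside 51.4% of all values). The collagen genes share arrays, so their differences are not independent. By class, knockout means were higher for 6 of 11 fibrillar, 3 of 6 basement membrane, 3 of 4 beaded filament, 7 of 9 fibril-associated, 4 of 4 transmembrane, 1 of 2 multiplexin and 2 of 3 hexagonal network genes, and for all 3 others.

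The machinery that makes and cross-links collagen was measured for 27 of 29 genes. In knockout 1 fell and 0 rose (beside 3.35% and 4.28% of all values). In wild-type cerebella 5 fell and 3 rose (beside 12.1% and 12.9%). Lox, the lysyl oxidase that starts cross-links between collagen chains, lay below the pool on all 9 arrays. Lox was at -0.93, -0.92, -1.01 and -0.51 on knockout 1 to 4, and at -1.35, -0.80, -1.28, -1.69 and -0.87 on wild-type 1 to 5. The mean was -0.84 ± 0.22 (SD, n = 4) in knockout and -1.20 ± 0.37 (SD, n = 5) in wild-type cerebella (limma adjusted p = 0.0163 and 0.000625). Its relative Loxl2 averaged -0.74 ± 0.34 (SD, n = 4) in knockout and -0.82 ± 0.56 (SD, n = 5) in wild-type cerebella, and passed in the wild-type but not in knockout (limma adjusted p = 0.0897 and 0.0186). The highest of the list were Ppib, a prolyl isomerase that folds procollagen, and Adamts14, a procollagen protease. Ppib averaged 0.41 in knockout and 0.70 in wild-type cerebella (limma adjusted p = 0.0989 and 0.00360). Adamts14 averaged 0.37 in knockout and 0.66 in wild-type cerebella (limma adjusted p = 0.241 and 0.0152).

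Collagen receptors were measured for 10 of 11 genes. In knockout 1 fell and 0 rose (beside 3.35% and 4.28% of all values), and in wild-type cerebella 3 fell and 3 rose (beside 12.1% and 12.9%). The integrin chain Itga1 averaged -0.37 in knockout and -0.55 in wild-type cerebella (limma adjusted p = 0.130 and 0.00958), and Itga2 averaged -0.49 and -0.82 without passing in either. The collagen receptor kinase Ddr2 averaged 0.21 in knockout and 0.65 in wild-type cerebella (limma adjusted p = 0.499 and 0.0151). Adgrg1, an adhesion receptor for type III collagen in the developing brain, averaged 0.14 in knockout and 0.77 in wild-type cerebella (limma adjusted p = 0.740 and 0.0138). On knockout 1 to 4 Adgrg1 was at -0.55, 0.21, 0.94 and -0.047, and on wild-type 1 to 5 at 0.58, 0.79, 0.83, 0.82 and 0.83.

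Collagen-degrading proteases and their inhibitors were measured for 11 of 12 genes. Of these 2 fell in knockout and 3 in wild-type cerebella (beside 3.35% and 12.1% of all values). In both genotypes 0 rose (beside 4.28% and 12.9%). Timp4, an inhibitor of matrix metalloproteinases, averaged -0.51 ± 0.11 (SD, n = 4) in knockout and -0.89 ± 0.25 (SD, n = 5) in wild-type cerebella (limma adjusted p = 0.0253 and 0.000497). The gelatinase Mmp9 averaged -0.46 ± 0.14 (SD, n = 4) in knockout and -0.65 ± 0.098 (SD, n = 5) in wild-type cerebella (limma adjusted p = 0.0114 and 0.000432). Mmp13 and Mmp8, collagenases, averaged 0.20 and 0.41 in knockout and 0.50 and 0.33 in wild-type cerebella, and passed in neither. Between the genotypes 0 genes of these 4 pathway lists passed.

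Markers of meningeal fibroblasts, the cells that lay down most fibrillar collagen around the brain, were measured for all 13 genes, none at 0 on every array. Their array means lay between -0.34 and -0.00051 in knockout and -0.49 and 0.071 in wild-type cerebella. Of the 13 genes 1 fell and 1 rose in knockout (beside 3.35% and 4.28% of all values), and 6 fell and 1 rose in wild-type cerebella (beside 12.1% and 12.9%). The gene that rose was Pdgfra in both genotypes, at 0.93 in knockout and 1.80 in wild-type cerebella. Pdgfra is also in the oligodendrocyte and precursor list, and it raises the meningeal means. The median gene of the meningeal list was at -0.24 in knockout and -0.43 in wild-type cerebella. Skeletal muscle markers, 8 of 8 measured, had array means between -0.39 and -0.25 in knockout and -0.42 and 0.071 in wild-type cerebella. How far meninges or other tissue kept with a cerebellum has a part in the collagen values was not tested.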

How the data were processed

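The files hold 1 log2 ratio per array feature and array, deposited by the authors as processed values, with no signal intensities. The submitters' processing notes name Agilent Feature Extraction. Background and dye correction, not given in the sources used here, could shift the ratios. The base was read from the size of the values, and the direction (sample in Cy5 over pool in Cy3) comes from the dyes per the labels, with no dye swap. Dim and saturated spots could not be set apart, and the number of arrays limits the precision.

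Features of 1 annotated symbol were averaged and the others kept singly, giving 30654 values per array, of which 19087 are named genes. Of the 45220 features 33653 have 1 symbol, 56 several and 11511 none. A model with 1 mean per genotype was fitted to all 9 arrays in limma 3.58.1 (R 4.3.3), tested two-sided and adjusted by Benjamini-Hochberg over all 30654 values, with a threshold of 0.05 and, where stated, a mean of at least 1 either way. The fit was tested on simulated data. Intervals are at 95%.

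Replicate numbers 1 to 4 come from the labels of both genotypes. Same-numbered arrays deviated together from their group means (r = 0.26, 0.26, 0.44 and 0.33), above a set minimum of 0.1, so a replicate block was fitted beside the unblocked model. Arrays of unlike number were not compared in this way, so the numbers are not shown to pair the samples. In plain correlations knockout 2, 3 and 4 were closest to the wild-type array of their own number. Knockout 1 was closer to wild-type 2 than to wild-type 1 (r = 0.528 against 0.507). Values on every array are given for the extremes of each class, for called genes up to 12 and for the 6 smallest genotype p; other genes with such values were added after their values were seen. The genes, the classes, the pathway and marker lists and this rule were chosen with earlier results of these data known. Promoter sequences are from RefSeq (GRCm38.p6), and those of 9 of the genes were not used here.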

Additional observations from a re-analysis of the deposited data

Results flagged for a closer look

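In 5 cases 1 array lay far from the others of its genotype, judged by its gap to the nearest array over the whole range. As 100 groups of 4 or 5 arrays were examined and chance picks out about 1 in 20 groups, this number is what chance gives. Col3a1 read 0.66 on knockout 3, against -0.36 to -0.22 on the other knockout arrays. Col11a2 read -0.73 on knockout 4, against -0.041 to 0.078 on the other knockout arrays, and Col4a6 read -0.20 on knockout 2, against -0.093 to -0.079. On wild-type arrays, Col9a3 read -1.38 on wild-type 4, against -0.38 to -0.007 on the others, and Col25a1 read 0.92 on wild-type 3, against -0.24 to 0.060.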

How the results depend on the processing

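With the minimum mean of 1, limma called 1 collagen gene in knockout over the pool and 3 in wild-type over the pool. The knockout count was 0 on letter-titled arrays alone and at an adjusted p under 0.01, and 0 to 1 with 1 array left out. It was 2 after quantile normalization and with single features, 3 with array weights and 7 with no minimum. Over all 30654 values the knockout count with that minimum was 606 in the fit to all arrays. It was 666 on letter-titled arrays, 1197 after quantile normalization and 1081 with array weights. The wild-type count was 5 with single features and 15 with no minimum, and 2 to 4 with 1 array left out. Number-titled arrays alone, with a single knockout array, are left out of these counts. The genotype count was 0 in every setting run. With no minimum, 16 genes passed in knockout with array weights and 11 with the title style block or quantile normalization, against 7. Without knockout 1, 2 or 4, 3 passed. The calls over all 30654 values moved too, from 2340 to 8534, 4303, 4649, 1192, 553 and 1365 in that order. A filter on SD, which leaves most members untested, left 1 in knockout and 3 in wild-type, beside 508 and 1939 of 15327 values. No called value of a single gene changed sign. Class means, which had no test, moved 19 times by more than the SD between arrays. Among these, the filter on SD drops genes and changes no value, so its class means are over fewer genes. They were 0.070 for the beaded filament class in knockout, and in wild-type 0.16 for the fibril-associated and 0.31 for the multiplexin class (Col15a1 alone). Number-titled arrays alone, 1 of them knockout, turned the class differences of the fibrillar, beaded filament and anchoring fibril classes to -0.18, -0.18 and -0.62. On letter-titled arrays the Col8a1 difference was -0.025, and on number-titled arrays the Col8a2 difference was 0.36. With 1 array left out, tests on single genes lost a call 20 times and kept their side of the threshold 232 times, and in the other settings 39 and 304 times. The 39 include every call on number-titled arrays alone, which are too few for a call on any gene.

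With replicate number as a block, these counts were 1, 3 and 0, and 5 and 19 with no minimum. Over all 30654 values 1911 and 9734 passed with the block and no minimum, against 2340 and 7650 without the block. In that block the difference was -0.52 for Col11a1, 0.42 for Col19a1 and 0.47 for Col23a1, each with a limma adjusted p of 0.751. The calls it ended are given with their genes, and the block ended no other collagen call. On letter-titled arrays alone the knockout calls of Col6a1 and Col12a1 and the wild-type calls of Col4a1, Col6a2, Col12a1 and Col19a1 were lost. The 3 number-titled arrays, with a single knockout array, are too few for a call on any gene. Calls lost there therefore say nothing about the collagen genes. Another pair of settings was chosen after seeing the data. Without knockout 3 and wild-type 3, the knockout calls of Col2a1 (-0.69, adjusted p = 0.0603 in limma), Col4a2 (-0.67, adjusted p = 0.0838) and Col23a1 (-0.63, adjusted p = 0.0533) and the wild-type call of Col5a1 (-0.42, adjusted p = 0.0578) were lost, and with features of curated RefSeq accessions alone that of Col6a2 (-0.29, adjusted p = 0.0725). What lies behind these changes was not tested.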
